A study of Solanum tuberosum with 10 samples.

Results

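Potato explants regrown for 4 weeks after an ultrasound treatment were compared with untreated explants of the same age. The comparison rests on 2 of the 10 libraries of the series, 1 ultrasonicated and 1 control, each made from pooled RNA of 3 biological replicates. Both come from in vitro plants of Solanum tuberosum, cultivar Desirée. Node pieces carrying 1 leaf were taken from plantlets 4 weeks old. Batches of 90 were ultrasonicated in 50 ml beakers that held 40 ml of liquid MS (a standard plant culture medium), and both arms then grew on MS medium free of growth regulators. The records of the control libraries repeat the beaker and medium, and they do not say whether control explants were immersed, so immersion and ultrasound cannot be told apart here. The other 8 libraries are the same arms at 0 h, 24 h, 48 h and 1 week, and serve below as a measure of how the ultrasound ratio moved elsewhere. The tissue label of both libraries names stem and plantlet, and no marker list could be set against it. The table gives a symbol to only 22 gene models, a class name to 1240 noncoding loci, and a description to none.

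Ultrasound in liquid produces pressure waves and small bubbles that strain cell walls and membranes. Plants meet such mechanical stress with calcium signals, reactive oxygen and secondary metabolism, of which flavonoid synthesis is a familiar branch. A node explant left to grow for weeks rebuilds shoot and root from its axillary bud.

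The control library held 138800651 counts and the ultrasonicated one 143590514. Features (gene models and noncoding loci) were compared where the 10 libraries gave enough counts, which left 24421 of 40430, of them 24271 gene models and 150 noncoding loci. Levels are CPM, counts scaled to library size and by TMM, a factor that sets the bulk of features level between libraries. With 1 library per arm there is no test of the pair. Each ratio, ultrasonicated over control, carries an exact 95% binomial (Clopper-Pearson) interval that covers counting error only, and a feature is called higher or lower where its whole interval lies beyond 2-fold. In pooled tissue RNA, fewer cells of a type and less RNA per cell cannot be told apart.

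At 4 weeks 1452 features (5.95%) were higher and 1559 (6.38%) lower in the ultrasonicated library. The 2 libraries were close for most features: 16096 features (65.9%) lay within 1.5-fold, and the log2 difference, computed on CPM with 0.5 added, had a 5th percentile of -0.94 and a 95th of 0.88. Beyond 4-fold there were 455 higher and 491 lower features, beyond 10-fold 126 and 129, and beyond 50-fold 6 and 7. The numbers of higher and lower features were near each other, and their order turned with total counts as the scaling, which gave 1576 higher and 1436 lower. By this measure the pair at 4 weeks, with 12.3% of features apart, stood near that at 24 h (12.4%), above 48 h (7.68%) and below 1 week (17.1%) and 0 h (22.8%).

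**Figure D1:**
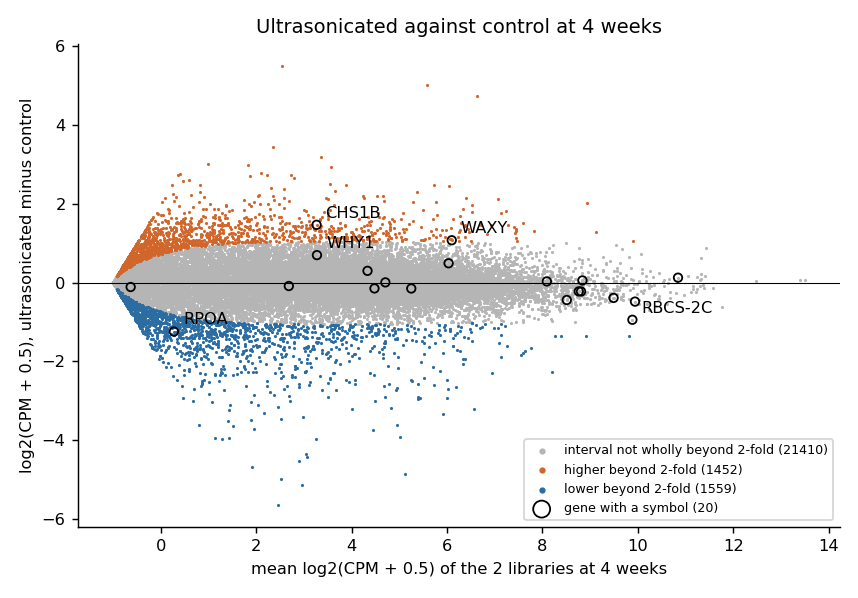
Each point is 1 of 24421 compared features at 4 weeks, with the mean log2 level of the 2 libraries across and the log2 difference, ultrasonicated minus control, upward, both on CPM with 0.5 added, which draws features of low level toward 0. The 1452 higher and 1559 lower features lie mostly at low and middle levels, and of the 20 circled genes with a symbol 2 are among the higher and 1 among the lower.

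The share of features apart was smaller at higher levels. Below a mean of 1 CPM 16.9% of 4756 features were higher and 14.3% lower. From 1 to 10 CPM the shares were 5.81% and 7.92% of 7334, from 10 to 100 CPM 1.86% and 2.53% of 10619, and from 100 CPM upward 1.34% and 1.64% of 1712. The higher features together held 0.767% of the control library's counts and 2.29% of the ultrasonicated library's, and the lower ones 2.81% and 0.919%. Of the 64 features at a mean of 1000 CPM or more, 57 lay within 1.5-fold, 1 was higher and 0 were lower, with ratios from 0.616 to 2.08.

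Of the gene models, 22 carry a symbol in the table, and 20 of them had enough counts to compare. The other 2 are both named RPS18, a ribosomal protein of the small subunit, and had 0 and 4 counts in the control library and 0 in the ultrasonicated one. Of the 20, 2 were higher beyond 2-fold (CHS1B and WAXY), 1 was lower (RPOA) and 17 were not apart, against 5.95% higher and 6.38% lower of all features. With so few genes these shares are too coarse to set the symbols apart from the rest. Intervals lay wholly above 1 for 8 of them and wholly below 1 for 9, against 40.6% and 40.9% of all features. At this depth most features differ by more than counting error, and ratios near 1 move with the scaling. Their median log2 ratio was -0.12, against 0 over all features.

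**Figure D2:**
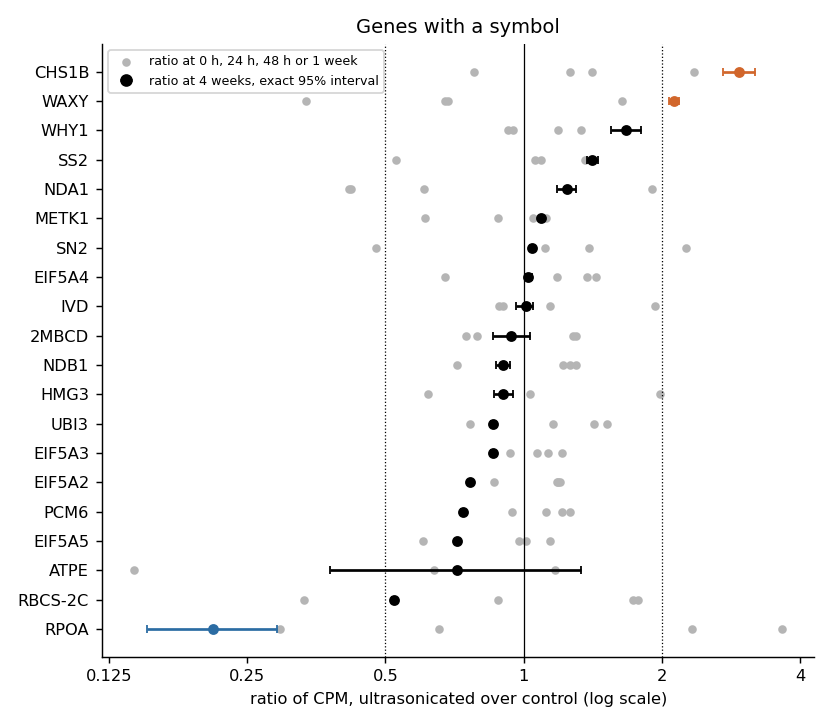
Ratio of CPM, ultrasonicated over control, on a log scale for the 20 compared genes with a symbol, with the exact 95% interval at 4 weeks; grey points are the ratios at the other times, and dotted lines mark 2-fold, orange the genes higher and blue the gene lower beyond it. CHS1B at 2.94 and WAXY at 2.12 lie beyond the upper line and RPOA at 0.211 beyond the lower one; the 1 week ratio of ATPE is not drawn because its control count was 0.

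Chalcone synthase makes the first compound committed to flavonoids, from which anthocyanins and flavonols derive. CHS1B, a chalcone synthase gene (PGSC0003DMG400029620, chromosome 9, 58356999 to 58359082 on the unnamed build of the table), had 802 counts in the control library and 2533 in the ultrasonicated one at 4 weeks, which is 5.28 and 15.5 CPM. Its ratio of 2.94 (interval 2.71 to 3.19) was the largest of the 20 genes. At earlier times its control levels were 0.813, 23.8, 35.6 and 24.4 CPM at 0 h, 24 h, 48 h and 1 week, and its ultrasonicated levels were 1.91, 30.1, 27.8 and 34.3 CPM. Both arms thus stood below their 1 week level at 4 weeks, the control arm further below. The ultrasonicated library was the higher of the pair at 4 of the 5 times, 48 h being the exception.

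Starch synthases lengthen the glucan chains of the starch granule. WAXY, the granule-bound enzyme that makes amylose (PGSC0003DMG400012111, chromosome 8, 56782186 to 56785790), had 7094 control and 16188 ultrasonicated counts, or 46.7 and 99.2 CPM, a ratio of 2.12 (2.07 to 2.18). The ultrasonicated level was also above the control level at 0 h (ratio 1.64, 1.55 to 1.75), and below it at 24 h, 48 h and 1 week, with ratios of 0.685, 0.335 and 0.675. From 1 week to 4 weeks WAXY went from 39.9 to 46.7 CPM in the control arm and from 27 to 99.2 CPM in the ultrasonicated arm. SS2, a soluble starch synthase that works on amylopectin chains (PGSC0003DMG400001328, chromosome 2, 46189568 to 46196715), had 54.7 and 77.3 CPM, a ratio of 1.41 (1.37 to 1.45) that is within 2-fold. It too was above control at 0 h (1.36) and below it at 48 h (0.528), and lay close to it at 24 h (1.09) and 1 week (1.06).

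RBCS-2C encodes a small subunit of Rubisco, the carbon-fixing enzyme of green tissue (PGSC0003DMG400012666, chromosome 2, 41192215 to 41193945). At 4 weeks its control level was 1310 CPM and its ultrasonicated level 683 CPM, a ratio of 0.521 (0.517 to 0.524) that stops short of 2-fold. The ratio had been below 1 at 0 h as well (0.333, 0.331 to 0.336) and at 48 h (0.878), and above 1 at 24 h (1.77) and at 1 week, with 962 and 1660 CPM. The control arm was therefore higher at 4 weeks than at 1 week and the ultrasonicated arm lower. Rubisco small subunits come in near-identical copies, and how reads shared between copies were counted is not given in the sources used here.

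Plastids have their own genome, and 2 of the compared genes with a symbol bear the names of plastid genes although they are placed on nuclear chromosomes. RPOA, the name of the alpha subunit of the plastid RNA polymerase (PGSC0003DMG400014075, chromosome 12, 3289301 to 3291579), had 207 control and 47 ultrasonicated counts, a ratio of 0.211 (0.151 to 0.291). Its control level of 1.36 CPM was matched or passed by the control arm at 24 h (2.26 CPM), and its ultrasonicated level of 0.288 CPM was the lowest of the 10 libraries. ATPE, the name of the epsilon subunit of the plastid ATP synthase (PGSC0003DMG400025106, chromosome 5, 1659655 to 1660475), had 26 and 20 counts, and its ratio of 0.716 (0.379 to 1.33) does not leave 1. At 24 h both had been below control, at 0.295 and 0.142. RPOA was above control at 48 h (3.65, 2.67 to 5.07) and 1 week (2.32, 1.74 to 3.13), and ATPE had 0 control and 59 ultrasonicated counts at 1 week. The direction of both thus changed from time to time.

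WHY1, a Whirly protein that binds single-stranded DNA (PGSC0003DMG400017627, chromosome 5, 5903924 to 5907317), had 7.09 and 11.8 CPM, a ratio of 1.67 (1.55 to 1.80). It was below its 1 week level of 25.2 and 30.1 CPM in both arms. Among the alternative NAD(P)H dehydrogenases, which pass electrons into the mitochondrial chain without pumping protons, NDA1 had 17.7 and 21.9 CPM (ratio 1.24, 1.18 to 1.30) and NDB1 39.6 and 35.7 CPM (0.902, 0.87 to 0.935). NDA1 had been below control at 0 h, 24 h and 48 h, with ratios of 0.417, 0.607 and 0.421, and above it at 1 week (1.90).

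**Figure D3:**
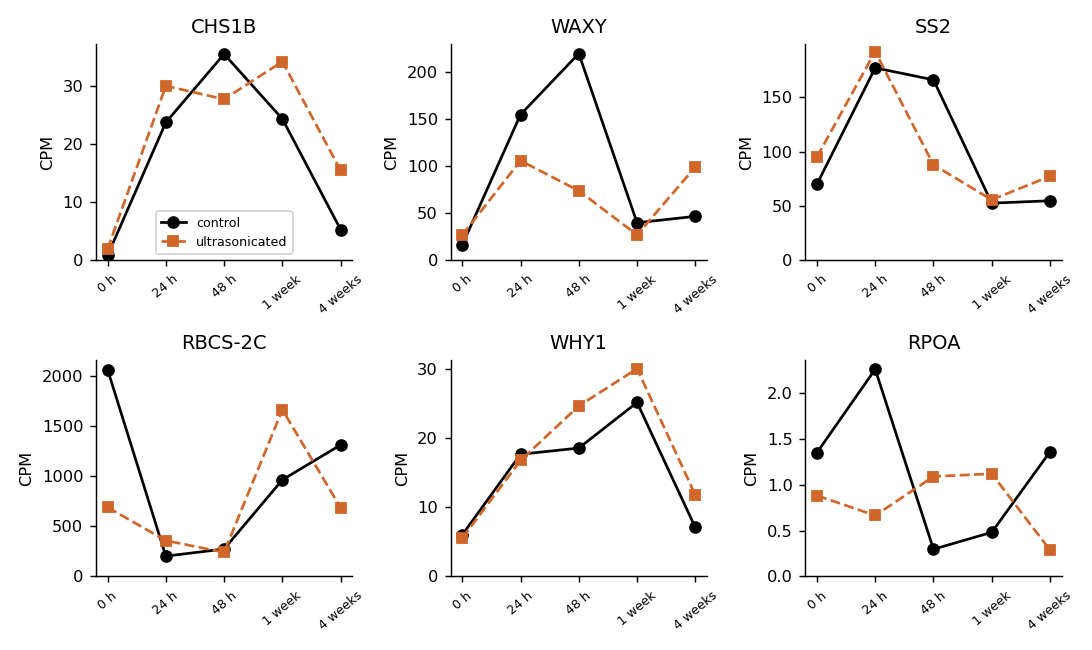
CPM of 6 genes at 5 times in the control and the ultrasonicated arm, 1 pooled library per point and so no error bar. At 4 weeks the ultrasonicated point lies above control for CHS1B, WAXY, SS2 and WHY1 and below it for RBCS-2C and RPOA; the time axis is not to scale.

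The translation factor EIF5A helps ribosomes through difficult peptide bonds, and 4 of its gene copies were compared. EIF5A5 had 1160 and 832 CPM (ratio 0.717), EIF5A2 823 and 629 CPM (0.765), EIF5A3 485 and 415 CPM (0.857), and EIF5A4 270 and 276 CPM (1.02). The 3 copies with the most CPM at 4 weeks were thus the lower ones in the ultrasonicated library, and none left 2-fold. The EIF5A4 ratio lay on the other side of 1 with median-ratio size factors (0.995) and with rRNA features left out (0.998). UBI3, a ubiquitin joined to a ribosomal protein, had 468 and 402 CPM (0.858), after ratios of 1.16 at 0 h, 0.765 at 24 h, 1.52 at 48 h and 1.42 at 1 week. PCM6, a calmodulin that carries calcium signals, had 424 and 313 CPM, a ratio of 0.738 (0.729 to 0.746), the lowest of its 5 ratios, which reached 1.26 at 48 h.

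The remaining genes with a symbol were close between the arms at 4 weeks. METK1, a synthase of the methyl donor S-adenosylmethionine, had 1760 and 1920 CPM (1.09). SN2, a snakin antimicrobial peptide, had 449 and 467 CPM (1.04), after ratios from 0.478 at 0 h to 2.26 at 1 week. IVD and 2MBCD, which oxidise the acyl-CoA products of branched-chain amino acids, had ratios of 1.01 (0.963 to 1.05) and 0.939 (0.856 to 1.03), and both intervals include 1. With median-ratio size factors the IVD ratio was 0.978. HMG3, a reductase of the mevalonate route to isoprenoids, had 23.0 and 20.7 CPM (0.902).

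Whether any ratio at 4 weeks differed from the ultrasound effect at the other 4 times was tested with edgeR's quasi-likelihood test over all 10 libraries, with time as a block and 3 residual degrees of freedom. The spread in this test is the departure of the other 4 pairs from a common effect. No feature passed at a Benjamini-Hochberg adjusted p of 0.05 (0 of 24421, 0%), the lowest adjusted edgeR p being 0.407. Without adjustment 1115 (4.57%) were under 0.05. limma-voom called 0 as well, with 1235 at an unadjusted p under 0.05, and DESeq2 called 157, of them 59 higher and 98 lower, with 1786 under 0.05 unadjusted. For the genes with a symbol the edgeR adjusted p was 1 throughout. The WAXY ratio at 4 weeks was 1.59 log2 units above that at the other times (SE 0.788) and the CHS1B ratio 1.15 above (SE 0.613). For RPOA the log2 difference was -2.43 (SE 1.69). With these data none of the 4-week values can be called particular to that time, and a p that misses the threshold does not show that the times are alike.

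Gene models without symbol or description were named by their interval. Among features counted in both libraries, PGSC0003DMG400008345 (chromosome 3, 36893134 to 36896848) was furthest above control by the interval bound nearest 1, with 56 control and 6358 ultrasonicated counts at 4 weeks, or 0.369 and 39.0 CPM, a ratio of 106 (81.3 to 140). Its ultrasonicated level was the highest of the 10 libraries, the next being 27.9 CPM in the ultrasonicated library at 24 h. At 1 week it had likewise been low in control (0.341 CPM) and higher after ultrasound (4.14 CPM), while control was the higher at 48 h (13.1 against 1.97 CPM) and 0 h (1.79 against 1.4 CPM). PGSC0003DMG400015287 (chromosome 3, 50085156 to 50086034) had 1 control and 481 ultrasonicated counts, a ratio of 448 (80 to 17700). The other 8 libraries had 1.71 to 16.1 CPM of it, so that the control library at 4 weeks, at 0.00659 CPM, was the one that stood apart.

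By the same measure, again among features counted in both libraries, PGSC0003DMG400020681 (chromosome 12, 5282787 to 5286762) was furthest below control, with 5850 control and 46 ultrasonicated counts, or 38.5 and 0.282 CPM, a ratio of 0.00732 (0.00535 to 0.00978). At 48 h and 1 week all 4 libraries had held 28.8 to 51.1 CPM of it, and at 0 h its levels were 0.468 CPM in the control and 12 CPM in the ultrasonicated library. PGSC0003DMG400008980 (chromosome 1, 61791999 to 61793529) had 1225 and 10 counts (0.0076, 0.00363 to 0.014), after levels of 43.5 and 22.7 CPM at 1 week.

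In the test against the other times the smallest p in the higher direction belonged to PGSC0003DMG400015287 (log2 difference 8.93, SE 1.00, edgeR adjusted p = 0.407) and to PGSC0003DMG400021773 (chromosome 3, 5197700 to 5198314; 10.34, SE 1.34, edgeR adjusted p = 0.624). The latter had 0 control and 171 ultrasonicated counts (1.05 CPM) at 4 weeks. Against a floor of 3 counts in the control library it was at least 53.1-fold higher (interval from 42.7). Its level in the other 8 libraries was 1.61 to 3.69 CPM, above that in both libraries of 4 weeks. In the lower direction they were PGSC0003DMG400004747 (chromosome 8, 52534813 to 52535501; -7.10, SE 0.735, edgeR adjusted p = 0.407) and PGSC0003DMG400008980 (-6.84, SE 0.769, edgeR adjusted p = 0.407). The former had 1388 and 19 counts at 4 weeks, and 31.0 and 35.3 CPM at 1 week. DESeq2 called all 4, with adjusted p of 3.1e-05, 0.00256, 2.08e-14 and 1.56e-12 in the order given.

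How the features apart at 4 weeks behaved at the other times was read from the other 8 libraries, which share no library with this pair. Of the 1452 higher features, 883 (60.8%) were higher at no other time, where of all compared features 78.1% were. Among the same 1452, 411 (28.3%) were apart in neither direction at any other time, against 59.6% of all features. Of the 1559 lower features 741 (47.5%) were lower at no other time, against 73.5% of all features, and 392 (25.1%) were apart at none. Features apart at 4 weeks were thus apart at another time more often than all features, but these shares are not matched for level. Below 1 CPM lay 805 of the higher and 681 of the lower features, against 4756 of all 24421. At 0 h 18.3% of all features below 1 CPM were higher and 22.3% lower, against 7.5% and 4.91% from 10 CPM upward. The part of level in the excess was not tested. At all 4 other times 1 higher feature was higher (0.0689%, against 0.0573% of all features) and 5 lower features were lower (0.321%, against 0.119%).

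Over all levels, features higher at 4 weeks had been lower more often than all features at 0 h, 24 h, 48 h and 1 week. At 0 h 22.8% of them were lower and 16% higher, against 11.2% and 11.6% of all features. Below 1 CPM 29.1% were lower and 15.3% higher at 0 h, against 22.3% and 18.3% of all features there. From 1 to 10 CPM 16% were lower and 17.1% higher, against 14.6% and 14.2%. From 10 CPM upward 13.1% were lower and 16.7% higher, against 4.91% and 7.5%. At 0 h lower thus outnumbered higher only below 1 CPM. At 1 week 15.7% of the higher set were lower and 16.3% higher, against 10.4% and 6.74% of all features. Below 1 CPM, the range of 805 of these features, the order turned at 1 week, with 15.7% lower against 18.9% of all features there. From 1 to 10 CPM 17.1% were lower at 1 week against 12.3%, and from 10 CPM upward 13.1% against 5.92%. Of the whole higher set 15.3% were lower at 48 h and 3.51% higher, against 5.04% and 2.64% of all features. Its median log2 difference at 48 h was -0.22 against 0.04. Below 1 CPM the share lower at 48 h was 13.2%, against 10.4% of all features there, from 1 to 10 CPM 18.5% against 6.79%, and from 10 CPM upward 16.7% against 1.92%. At 24 h 12.9% of the set were higher and 16.4% lower, against 5.2% and 7.15% of all features. Below 1 CPM the excess was small, with 16% higher and 16.1% lower against 14.4% and 14% of all features there. From 1 to 10 CPM the shares were 10.3% and 17.1%, against 5.39% and 9.12%. From 10 CPM upward they were 6.79% and 15.8%, against 1.52% and 3.36%. Over both arms, 36.4% of the higher features had their highest level of the other 4 times at 48 h, against 17.8% of all features. That share was 35.4%, 42.7% and 27.6% in the 3 ranges of level, against 23.9%, 22.8% and 12.5% of all features.

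Features lower at 4 weeks had often been lower at 1 week too, and less often at 24 h. Of them 28.4% were lower and 10.5% higher at 1 week, against 10.4% and 6.74% of all features. By range of level 26%, 29.1% and 32.7% were lower at 1 week, against 18.9%, 12.3% and 5.92% of all features. For 37.7% of them 1 week was the highest of the other 4 times, against 27% of all features. At 0 h the same features were more often higher (22.8%) than lower (15.4%), where all features had 11.6% and 11.2%. At 48 h 11% were higher and 7.06% lower, against 2.64% and 5.04%. At 24 h 14.6% were higher and 18% lower, against 5.2% and 7.15%. By range of level 16.4%, 16.7% and 24.2% were lower at 24 h, against 14%, 9.12% and 3.36% of all features.

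**Figure D4:**
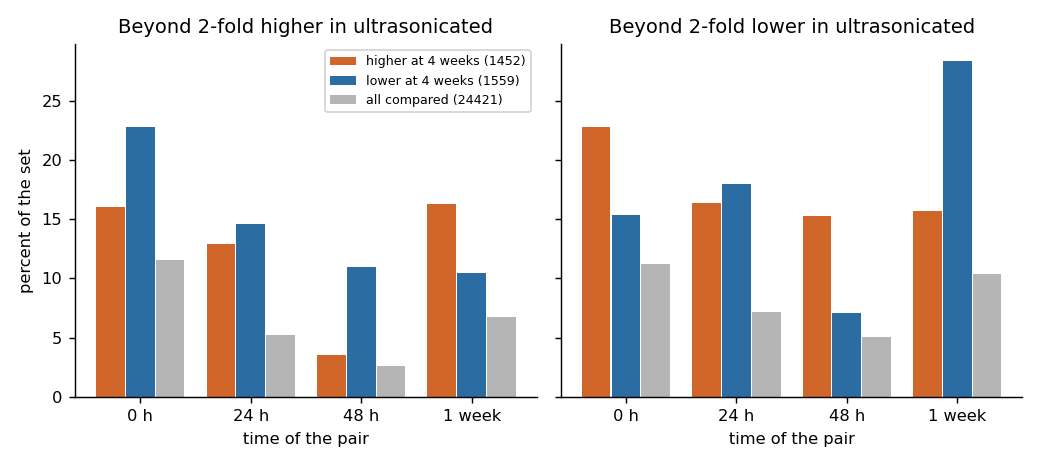
Percent of features beyond 2-fold higher (left) or lower (right) in the ultrasonicated library at 0 h, 24 h, 48 h and 1 week, for those higher at 4 weeks, those lower at 4 weeks and all compared features. Among the bars that stand above those of all features are the higher set lower at 0 h (22.8%) and 48 h (15.3%). Others are the lower set higher at 0 h (22.8%), lower at 24 h (18%) and lower at 1 week (28.4%). The bars are not split by level.

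The 4-week libraries were also placed among the other 8 for each feature, as a description of values that chose these sets. In the higher set the ultrasonicated library was above all 8 others for 462 features (31.8%) and the control library below all 8 for 306 (21.1%). In the lower set the ultrasonicated library was below all 8 for 445 features (28.5%) and the control library above all 8 for 242 (15.5%). Over all features the ultrasonicated library was above all 8 in 15.7% and below in 11.2%, and the control library above in 12.2% and below in 9.12%.

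Features apart at 4 weeks were followed by a neighbour apart the same way more often than the share over all features, though most were not. Of higher features with a next compared neighbour, 10.7% had a higher neighbour, against 5.84% of features on the chromosomes, and of lower features 17.7% had a lower one, against 6.32%. Without neighbours that overlap, whose reads can be shared, the shares were 10.1% and 16%. Runs of 3 or more neighbours in a row numbered 19 higher, with 62 features, and 41 lower, with 153.

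The longest lower run was 11 neighbouring gene models on chromosome 4, from 7654067 to 7740338, none overlapping the next and each 526 to 748 bases long. Together they had 11148 control and 1903 ultrasonicated counts at 4 weeks, or 73.4 and 11.7 CPM in sum, a ratio of 0.159 (0.151 to 0.167). The ratio of single members ran from 0.393 (0.365 to 0.424) down to a member with 854 control and 0 ultrasonicated counts, and 7 of the 11 had intervals wholly beyond 10-fold. At 24 h the order of the arms was the reverse, with sums of 58.3 CPM (control) and 101 CPM (ultrasonicated). At 1 week both libraries were low, at 11.9 and 7.39 CPM, and at 48 h they were near each other, at 46.6 and 51.1 CPM. At 0 h the ultrasonicated sum had been the lower too, 45.3 against 72.4 CPM (ratio 0.626). How reads shared between neighbouring copies were counted, if these are copies, is not stated.

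The longest higher run was 5 gene models on chromosome 2, from 32884283 to 33059792, with a control sum of 10.2 CPM and an ultrasonicated sum of 32.9 CPM, a ratio of 3.24 (3.06 to 3.43). All 5 lie on the minus strand, and their single ratios ran from 2.31 to 5.15. The sum was above control at 0 h (1.87, 1.75 to 2.0) and 1 week (1.49, 1.38 to 1.61) too. It was below control at 24 h (0.806) and at 48 h, 12.8 against 4.13 CPM, a ratio of 0.323.

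Ribosomal RNA, which mRNA libraries are made to leave out, was lower in the ultrasonicated library. Its loci had 188166 counts (0.136% of the library) in the control library and 57661 (0.0402%) in the ultrasonicated one, a ratio of 0.285 (0.283 to 0.288). Of 43 compared rRNA loci 29 were lower and 1 higher, against 6.38% and 5.95% of all features. The large subunit class had a ratio of 0.128 (0.125 to 0.131) and the small subunit class 0.349 (0.345 to 0.352). The class 5_8S_rRNA had 464 and 134 counts, a ratio of 0.269 (0.22 to 0.326). At other times the share of rRNA ran from 0.0333% to 2.19%, the highest in the control library at 24 h. Of the 41 lower runs, 10 were wholly lower at 24 h as well, against 0 at 0 h, 1 at 48 h and 1 at 1 week. Of these 10 runs, 7 hold rRNA loci. Some hold features that overlap and can share reads, such as the 5 from 51059758 on chromosome 1, with 3 overlaps. Members of a run are thus not all separate observations. The 10 runs were picked out after their values were seen.

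These 10 runs hold 44 features, 17 of them rRNA loci and 21 gene models, and took 0.221% of control counts and 0.0385% of ultrasonicated counts at 4 weeks. At 4 weeks their summed level was 2020 CPM (control) against 339 CPM (ultrasonicated). The same sums were 33700 against 719 CPM at 24 h and 3360 against 3330 CPM at 1 week, while ultrasonicated was the higher at 0 h (6110 against 10000 CPM) and 48 h (299 against 490 CPM). All rRNA loci together followed the same order, with 1240 against 353 CPM at 4 weeks, 22500 against 647 CPM at 24 h and 2550 against 2530 CPM at 1 week. They too were higher after ultrasound at 0 h (3260 against 6140 CPM) and 48 h (295 against 472 CPM). On chromosome 3, 4 of the runs lie between 12428028 and 12673734. There 23 of 32 compared features were lower at 4 weeks and 0 higher, against 6.38% and 5.95% of all features. At 24 h 30 of the 32 were lower, against 7.15% of all features, and all 23 were among them. The runs were picked for being lower at both times, so this overlap was largely fixed by the choice. The part of rRNA content in these lower values was not tested.

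**Figure D5:**
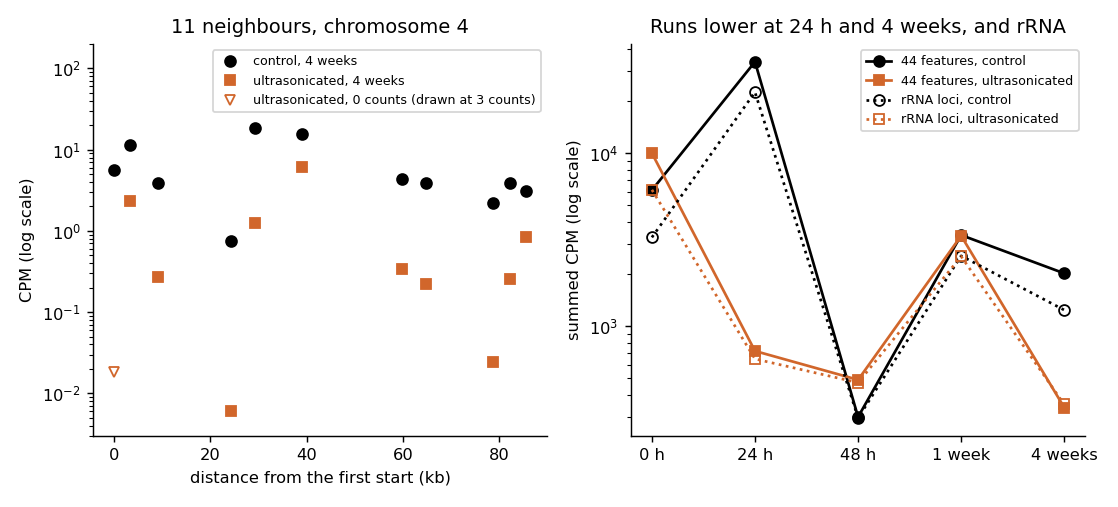
Left, CPM on a log scale of the 11 neighbouring gene models on chromosome 4 in both libraries at 4 weeks, by distance from the first start, with the member of 0 counts drawn at the level of 3 counts; the ultrasonicated point is the lower at each of the 11. Right, summed CPM (log scale) of the 44 features in runs lower at both 24 h and 4 weeks, and of all rRNA loci. The 17 rRNA loci among the 44 count in both sums. Both sums are far apart between arms at 24 h (33700 against 719 CPM for the 44) and level at 1 week. The time axis is not to scale.

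Other noncoding classes had few counts. Small nucleolar RNAs, which guide the modification of rRNA, had 1078 control and 1668 ultrasonicated counts over 82 loci, a ratio of 1.44 (1.33 to 1.56). Of their 18 compared loci 3 were higher and 1 lower, against 5.95% and 6.38% of all features. The class snoZ103 took part of this, with 237 and 607 counts over 8 loci and a ratio of 2.38 (2.05 to 2.78). Its level was 1.56 CPM in the control and 3.72 CPM in the ultrasonicated library, and 2 of its loci, at 57909021 and 57909521 on chromosome 12, had ratios of 3.81 (2.57 to 5.80) and 3.10 (2.23 to 4.38). Across the other times snoZ103 ran from 0.799 to 4.49 CPM. Plant_U3, which acts in rRNA cleavage, had 683 and 852 counts (1.16, 1.05 to 1.29). The spliceosomal RNAs, from U1 to U6, had 7.32 and 7.36 CPM in sum (1.00, 0.925 to 1.09), and 2 of 16 compared loci were higher, against the same 5.95%. Among them U2 had a ratio of 1.35 (1.15 to 1.58), U6 one of 0.90 (0.811 to 1.00) and U1 one of 1.08 (0.784 to 1.5). U5 had 43 and 20 counts, a ratio of 0.433 (0.241 to 0.752). For tRNA-Tyr, on 17 and 7 counts, the ratio was 0.383 (0.134 to 0.972). The signal recognition particle class Plant_SRP had a ratio of 0.47 (0.411 to 0.537) and group II intron loci 0.283 (0.235 to 0.339), on 669 and 516 control counts. At 0 h, 24 h, 48 h and 1 week Plant_SRP had 11.8, 82.4, 2.96 and 6.93 CPM in control. After ultrasound it had 14.3, 3.24, 2.78 and 5.93 CPM. Group II intron loci had 7.41, 10.4, 0.936 and 2.98 CPM in control and 16.5, 4.72, 3.38 and 4.31 CPM after ultrasound.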

How the data were processed

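Per the labels, RNA of 3 biological replicates went into each pool and libraries came from a stranded mRNA kit; the design text adds that rRNA had been taken out and that reads were paired, of 150 bp. HISAT2 2.1.0, Trim Galore 0.5.0 and FastQC 0.11.5 are named in the submitters' processing notes. What build, annotation, counter, strand setting and rule for multiply mapped reads were used is not given in the sources used here. Raw counts for each feature, with no normalization, were deposited by the authors, and each column matched 1 sample label. No identifier matched the reference gene table (0). Features were kept by filterByExpr on arm and scaled by TMM over 10 libraries (edgeR 4.0.16, limma 3.58.1, DESeq2 1.42.0, R 4.3.3). Intervals and the floor of 3 counts cover counting error only, since PCR copies cannot be told from molecules. P-values reflect how the ultrasound ratio of pooled libraries differed among the other 4 times, not how plants or repeated libraries vary. Code was tested on simulated data.

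Named were all genes with a symbol, noncoding classes with at least 5 counted loci, and the longest run per direction. At most 2 other identifiers per direction were named by the interval bound nearest 1 at 4 weeks, with a count in both libraries. At most 2 per direction were likewise named by p in the test against the other times. Of the loci apart with at least 100 counts in those classes, only 2 of snoZ103 were named. Members and lists were chosen with earlier results of these data known. Alternatives covered scaling, filters, fold, tool and left-out times. Total counts ran from 122786170 to 161153911 per library, so at 4 weeks 3 counts were worth 0.0198 CPM (control) and 0.0184 CPM (ultrasonicated).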

Additional observations from a re-analysis of the deposited data

How the results depend on the processing

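With other scalings the features higher at 4 weeks ranged from 1371 to 1576 and the lower from 1436 to 1643, and the same 3 genes with a symbol stayed apart; the median log2 difference of all features moved by less than 0.1. With a filter at a mean of 1 CPM 651 were higher and 1108 lower, so that the higher made up 37% of those apart instead of 48.2%. An interval beyond 1.5-fold gave 2948 higher and 2814 lower, one beyond 4-fold 455 and 491, and the bare ratio beyond 2-fold 2328 and 2290. Leaving out overlapping features, chosen after seeing the data, gave 1316 and 1424. The rRNA ratio was 0.296 with total counts. The 60 runs became 168 at 1.5-fold and 10 at 4-fold. Against the other times DESeq2 called 157 features where edgeR and limma-voom called 0; edgeR called 0 under every other setting listed, including without each other pair. The 1115 features at an unadjusted edgeR p under 0.05 became 2079 without the pair at 0 h and 607 without that at 48 h. The cause was not tested. Depth limits the low features: 3 counts set the floor.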

Other observations

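More features were counted in the ultrasonicated library at 4 weeks (26690) than in the control library (25226). With at least 20 counts in one library and 0 in the other, 362 features were counted in the ultrasonicated library alone and 174 in the control library alone. Their median counts were 34 and 36, and against a floor of 3 counts the median bound was at least 10.5-fold in the first set and 12.9-fold in the second. Of the 362, 355 had a count in the control arm at another time, and of the 174, 154 had one in the ultrasonicated arm at another time.

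Every chromosome held features apart in both directions. The higher ones made up from 5.05% (chromosome 2) to 7.21% (chromosome 8) of the compared features, and the lower ones from 4.55% (chromosome 11) to 8.09% (chromosome 12).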
